A study of Mus musculus with 24 samples.

Results

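The comparison described here is between a pair of control lines of CT26, a colon carcinoma cell line of BALB/c mice, that both carry the Sun1 gene and served as controls for a line in which Sun1 was knocked out. Sun1 encodes an inner nuclear membrane protein of the LINC complex, which ties the nuclear lamina to the cytoskeleton. The rule took the 4 RNA-seq libraries of purified tumor cells from the control lines, 2 from line 1 and 2 from line 2, out of 24 libraries in the series, and checked each difference for direction in the 2 cultured control libraries, 1 of each line. The genotype of both lines is labelled as wild type. The purified cells came from subcutaneous tumors of BALB/c mice, grown for 14 days in the flank from an injection of CT26 cells, and the cultured cells were kept in serum-supplemented medium. How the lines were derived, whether each is 1 clone, how tumor cells were purified and whether each library is 1 mouse or a pool are not given in the sources used here, so the spread behind each p-value is that between these libraries and may be technical. The knockout line, with 2 purified and 1 cultured library, is given beside the control lines where its level helps to place them, as are 8 whole tumors of control line 1.

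A transplanted tumor line is a population of cells that keeps changing in culture. Sublines kept apart are known to come to differ in which genes are silent and in how strongly signalling and stress pathways run. Interferon responses, matrix production and the p53 response are among the programs in which tumor lines are known to vary.

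The 4 purified control libraries held 17068356 to 22593612 summed expected counts, and the 24 libraries 14140769 to 24651279. Values are CPM, counts scaled to a common library size with TMM. Sun1 itself was present in both control lines. It measured 174 and 214 CPM in line 1 and 167 and 166 CPM in line 2 in purified cells, and 122 and 110 CPM in culture, against 50.9 and 55.5 CPM in the purified knockout libraries and 33.7 CPM in the cultured one. The difference between the control lines in Sun1 did not pass the test (log2 difference -0.22 ± 0.12 SE, edgeR adjusted p = 0.249, line 2 minus line 1). The 12 listed genes known from CT26 cells summed to 13424 and 14256 CPM in line 1 and to 14845 and 15709 CPM in line 2. The leukocyte gene Ptprc (CD45) measured 1.58 and 2.01 CPM in line 1 and 2.27 and 0.55 CPM in line 2, against a median of 120 CPM in the whole tumors.

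In purified tumor cells, 1508 of 12135 tested genes differed between the control lines (12.4%, edgeR quasi-likelihood test, Benjamini-Hochberg adjusted p under 0.05). Of these, 616 were higher in line 2 (5.08% of the tested genes) and 892 were lower in line 2 (7.35%). Most of the differences were modest. The median size was 0.66 on the log2 scale, 584 of the called genes differed by less than 1.5-fold, 386 by at least 2-fold and 164 by at least 4-fold. Among the 386, 157 were higher and 229 lower in line 2. The count rested on the libraries in the fit: it was 999 without line 1 replicate 1 and 2319 without line 2 replicate 2, and it was 2267 without a filter on low counts.

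Some genes were near 0 in 1 line and clearly present in the other. Cnga1, on chr5:72603696-72642752 (GRCm38), encodes a subunit of the cyclic nucleotide-gated cation channel of rod photoreceptors. It had no counts in either purified library of line 1 and 12.6 and 11.5 CPM in line 2, at least 142-fold higher when 3 counts are allowed over the line 1 libraries (edgeR adjusted p = 3.17e-05). The cultured libraries held 0.055 CPM in line 1 and 13.4 CPM in line 2, a ratio of 244 with a 95% exact counting interval from 43.4 to 9665.9. The knockout line had 0.046 and 0.048 CPM in purified cells and none in culture, so of the 3 lines line 2 alone was above 0.5 CPM.

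Syt1, on chr10:108497650-109010980, encodes synaptotagmin 1, the calcium sensor of vesicle release. It went the other way, with 20.5 and 22.3 CPM in line 1 and 0.21 and 0.046 CPM in line 2 (log2 difference -7.36 ± 0.37 SE, adjusted p = 3.38e-06). In culture it measured 14.8 CPM in line 1 and 0.052 CPM in line 2, and in the purified knockout libraries 5.37 and 5.28 CPM.

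Il13ra1, on chrX:36112108-36171262, encodes a receptor subunit for interleukin 13. It rose from 0.73 and 2.38 CPM in line 1 to 56.6 and 42.8 CPM in line 2 (log2 difference 4.96 ± 0.36 SE, adjusted p = 0.000250). Cultured cells were at 0.33 and 2.69 CPM, in the same order at a lower level, and the purified knockout libraries at 0.092 and 0.097 CPM. Whole tumors of line 1 held 24.1 to 41.7 CPM of Il13ra1, above the purified cells of that line.

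H2-T23, on chr17:36029977-36032701, encodes the non-classical class I molecule Qa-1, which is read by receptors of natural killer cells. It measured 3.33 and 3.50 CPM in line 1 and 86.4 and 57.1 CPM in line 2 (log2 difference 4.39 ± 0.23 SE, adjusted p = 4.30e-06), and 0.44 and 2.89 CPM in culture. The knockout line lay between the control lines, at 20.5 and 24.6 CPM. Whole tumors of line 1 held 89.1 to 182 CPM of H2-T23, above the purified cells of that line.

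The sequence upstream of the start site is shown for these genes because their promoters differ in composition, while each gene was at least 21.0-fold lower in line 1. Each run is the 250 bases before the start in RefSeq (GRCm38.p6), 5′ to 3′ on the strand of the gene, with every CG pair in capitals. Cnga1 lies on the minus strand (chr5:72642753-72643002) and H2-T23 on the minus strand (chr17:36032702-36032951), while Il13ra1 lies on the plus strand (chrX:36111858-36112107).
Cnga1: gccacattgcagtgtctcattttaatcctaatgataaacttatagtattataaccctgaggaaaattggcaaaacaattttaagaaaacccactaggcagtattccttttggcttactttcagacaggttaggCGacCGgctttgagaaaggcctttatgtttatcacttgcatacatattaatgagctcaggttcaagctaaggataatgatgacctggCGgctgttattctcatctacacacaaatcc
Il13ra1: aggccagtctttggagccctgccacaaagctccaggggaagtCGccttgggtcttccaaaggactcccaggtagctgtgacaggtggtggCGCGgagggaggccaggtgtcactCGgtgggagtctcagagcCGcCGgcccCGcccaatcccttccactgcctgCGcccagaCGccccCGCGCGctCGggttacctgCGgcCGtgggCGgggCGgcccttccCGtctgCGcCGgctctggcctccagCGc
H2-T23: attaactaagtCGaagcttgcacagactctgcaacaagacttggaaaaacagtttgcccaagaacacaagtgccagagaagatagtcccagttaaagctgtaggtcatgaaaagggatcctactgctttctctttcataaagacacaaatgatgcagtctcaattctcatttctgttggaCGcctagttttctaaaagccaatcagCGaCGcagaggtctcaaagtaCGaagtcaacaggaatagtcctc
The runs hold 3 CG pairs for Cnga1, 21 for Il13ra1 and 5 for H2-T23. Over the full window of 300 bases, which adds 50 after the start, all tested genes had a median of 22 CG pairs (quartiles 15 and 30, 9543 genes with an entry). The called genes had a median of 21 (1166 genes) and those that differed by at least 2-fold a median of 10 (280 genes). Genes of low level carry fewer CG pairs in general: the tested genes under 10 CPM had a median of 16 and the others 24. Within each of these classes the genes that differed by at least 2-fold were lower, with medians of 9 (168 genes) and 13.5 (112 genes). DNA methylation was not measured in these libraries.

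**Figure D1:**
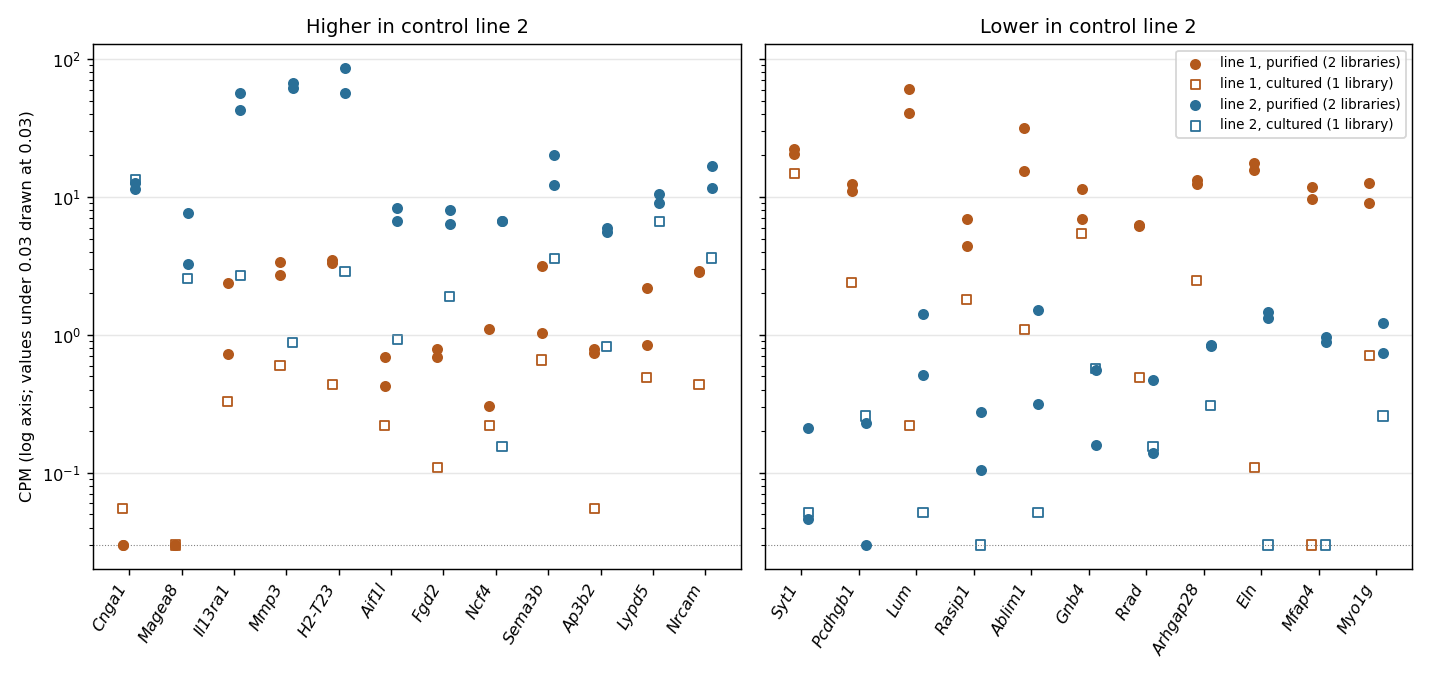
Level of 12 genes with the largest rise and 11 with the largest fall in line 2, among called genes whose mean reached 5 CPM in either line. Filled points are the purified libraries (2 per line) and open squares the cultured libraries (1 per line), in CPM on a log axis. Purified points of the lines do not overlap, as is so for all 1508 called genes and for 59.2% of the tested genes. Cnga1 and Syt1 keep their cultured values at the level of the purified ones, while Eln and Mfap4 are near 0 in culture in both lines.

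Among the other genes with the largest rise in line 2 were Mmp3, the matrix protease stromelysin-1, Sema3b, a secreted semaphorin, and Nrcam, a neural cell adhesion molecule. Mmp3 measured 3.39 and 2.70 CPM in line 1 and 67.1 and 61.3 CPM in line 2 (log2 difference 4.41 ± 0.17 SE, adjusted p = 8.12e-07). The whole tumors of line 1 held 65.8 to 123 CPM of it. In culture both lines were low, at 0.60 and 0.88 CPM, and the line difference was larger in purified cells than in culture by 3.86 ± 0.63 SE on the log2 scale (edgeR test of the difference between settings, adjusted p = 0.0140). Sema3b measured 1.03 and 3.18 CPM in line 1 and 12.2 and 20.2 CPM in line 2, with 0.66 and 3.56 CPM in culture. Nrcam went from 2.91 and 2.86 CPM to 11.6 and 16.9 CPM, with 0.44 and 3.61 CPM in culture. Magea8, a cancer-testis antigen gene on the X chromosome, had no counts in line 1 and 7.69 and 3.28 CPM in line 2, at least 63.0-fold higher (adjusted p = 0.000851), and 0 and 2.58 CPM in culture. Reads of MAGE, class I and interferon-induced GTPase genes can be shared between near-identical family members, so values of single members are uncertain.

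Several genes known for signalling in leukocytes were higher in line 2. They were picked after their values were seen. Il2rg, the gamma chain shared by several interleukin receptors, measured 12.9 and 16.4 CPM in line 1 and 71.0 and 61.3 CPM in line 2 (log2 difference 2.18 ± 0.15 SE, adjusted p = 3.95e-05). Its cultured values stood further apart, at 0.77 CPM in line 1 and 27.4 CPM in line 2. Map4k1, a kinase of antigen receptor signalling, had 2.85 and 3.44 CPM in line 1 and 13.6 and 14.5 CPM in line 2, and 0.77 and 7.23 CPM in culture. Ptpn6, the phosphatase SHP-1, had 12.3 and 10.1 CPM in line 1 and 38.9 and 36.0 CPM in line 2, and 8.39 and 21.6 CPM in culture. All 3 had the higher cultured value in line 2.

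Markers of host leukocytes and of other host cells were at low levels, and several of their sums were lower in line 2. The 16 macrophage and monocyte markers summed to 113 and 116 CPM in line 1 and to 65.8 and 89.8 CPM in line 2. The lines did not overlap in this sum, which includes Cd14. Of the 16, 13 were lower in line 2, while 1 rose and 1 fell by the test, near the 12.4% called over all tested genes. Cd68, a lysosomal protein of macrophages, rose from 0.61 and 0.85 CPM to 4.0 and 5.17 CPM, and its cultured values were 0.99 and 4.85 CPM. Cd14, a co-receptor for endotoxin, fell from 81.2 and 76.8 CPM to 41.2 and 44.0 CPM, and its cultured values were 41.4 and 23.8 CPM. Cd14 was a large part of the macrophage and monocyte sums, and without it the purified sums of the lines overlapped. In culture the full list summed to 52.6 CPM in line 1 and to 33.1 CPM in line 2. The complement gene C1qa, a defining macrophage marker, was at 2.67 and 3.97 CPM in line 1 and 4.69 and 0.97 CPM in line 2, against a median of 205 CPM in whole tumors. The T cell markers summed to between 2.01 and 2.85 CPM in line 1 and between 0.37 and 3.21 CPM in line 2, and the neutrophil markers to at most 0.48 CPM in each of the 4 libraries. The B and plasma cell markers summed to between 1.15 and 1.38 CPM in line 1 and between 0.053 and 0.18 CPM in line 2, again with no overlap. The part of host cells in the differences of other genes was not tested.

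Genes of the extracellular matrix were lower in line 2. Of 41 tested collagens and matrix proteins, 18 fell and none rose, where 7.35% of all tested genes fell, and the median difference was -0.56 on the log2 scale against 0.00 over all tested genes. The list has 49 members, and the remaining 8 were under the count filter. With 1 library left out in turn, 14 to 24 fell and up to 3 rose. The genes that fell included small leucine-rich proteoglycans, which bind collagen fibrils. Dcn, decorin, measured 386 and 660 CPM in line 1 and 58.4 and 44.6 CPM in line 2 (log2 difference -3.34 ± 0.29 SE, adjusted p = 0.00201). Lum, lumican, measured 40.5 and 60.2 CPM in line 1 and 1.42 and 0.51 CPM in line 2 (log2 difference -5.73 ± 0.35 SE, adjusted p = 5.94e-05). Prelp fell from 88.3 and 145 CPM to 22.1 and 30.7 CPM (adjusted p = 0.00431). The calls of Dcn and Prelp were lost when either library of line 2 was left out.

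Several collagens fell as well. Col3a1, the chain of type III collagen, measured 1427 and 1455 CPM in line 1 and 587 and 497 CPM in line 2 (log2 difference -1.41 ± 0.12 SE, adjusted p = 0.000175). Col6a1 measured 396 and 469 CPM in line 1 and 174 and 198 CPM in line 2 (log2 difference -1.21 ± 0.12 SE, adjusted p = 0.000320). Col4a5, a basement membrane chain, fell from 155 and 171 CPM to 84.2 and 71.6 CPM (adjusted p = 0.000545). Col1a2, a chain of type I collagen, did not pass the test, with 3010.2 and 3111 CPM in line 1 and 2463 and 2408 CPM in line 2 (adjusted p = 0.0929). Eln, elastin, fell from 15.6 and 17.7 CPM to 1.32 and 1.48 CPM, and Mfap4, a microfibril protein, from 9.64 and 11.8 CPM to 0.90 and 0.97 CPM. Fn1, fibronectin, had a mean level per length of 755 TPM in line 1 and 348 TPM in line 2. Its libraries held 4243 and 5818 CPM in line 1 and 2074 and 2841 CPM in line 2 (log2 difference -1.03 ± 0.18 SE, adjusted p = 0.00704), and its call was lost without line 2 replicate 1. Spp1, osteopontin, had a mean of 4645 TPM in line 1 and 2675 TPM in line 2 (log2 difference -0.69 ± 0.14 SE, adjusted p = 0.0100).

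Culture split these matrix genes. Col3a1 and Col6a1 kept their gap, at 201 against 79.7 CPM and 35.9 against 15.2 CPM. Dcn, Lum and Eln were low in both cultured lines, Dcn at 4.11 and 2.38 CPM, Lum at 0.22 and 0.052 CPM and Eln at 0.11 and 0 CPM. For these genes the direction in culture rests on few counts. The 12 fibroblast markers, which include Dcn, Lum, Col3a1 and Pdgfra, moved with the matrix list. In the same direction, the endothelial markers summed to 15.8 and 16.2 CPM in line 1 and 8.005 and 8.04 CPM in line 2, with 1 of 3 tested falling. Cultured cells, which hold no host cells, also gave endothelial sums of 11.7 CPM in line 1 and 5.52 CPM in line 2. The skin keratinocyte markers summed to 9.82 and 9.85 CPM in line 1 and 5.87 and 6.48 CPM in line 2, with none called. Their cultured sums were 7.90 CPM in line 1 and 6.76 CPM in line 2. The fibroblast markers summed to 6317 and 6958 CPM in line 1 and to 4059 and 4385 CPM in line 2, with no overlap. By the test 4 of the 12 fell and none rose, where 7.35% of all tested genes fell. Without overlap 8 of the 12 were lower and 2 higher, where 59.2% of all tested genes did not overlap. The cultured sums of the fibroblast markers were 2841 CPM in line 1 and 2200 CPM in line 2. Periostin and lysyl oxidase, matrix genes picked after their values were seen that the whole tumors of line 1 hold at medians of 8.06 CPM for Postn and 10.6 CPM for Lox, were at 0.47 CPM or less in each purified control library. In bulk libraries fewer cells of a type and less RNA per cell cannot be told apart, and the part of host fibroblasts in the fall of Dcn and Lum was not tested.

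Counts for complement, growth factor and WNT signalling and sterol synthesis are given beside the 7.35% of all tested genes that fell and the 5.08% that rose. Of 11 tested complement genes 4 fell and none rose. C4b, a component of the classical pathway, fell from 36.2 and 57.4 CPM to 10.2 and 9.74 CPM, and Cfb, factor B of the alternative pathway, from 24.9 and 22.98 CPM to 7.21 and 6.47 CPM. C4b was higher in the purified knockout libraries than in either control line, at 193 and 187 CPM. Of 35 tested receptor tyrosine kinases and ligands 5 fell and 2 rose, and 8 fell and 1 rose without line 2 replicate 2. Pdgfra, a receptor for platelet-derived growth factor, fell from 83.2 and 100 CPM to 42.3 and 37.5 CPM (log2 difference -1.20 ± 0.13 SE, adjusted p = 0.000504). Fgfr1, a receptor for fibroblast growth factors, fell from 322 and 343 CPM to 175 and 210 CPM (adjusted p = 0.00298). Of 20 tested genes of WNT signalling 5 fell and none rose, and the count was 2 without line 1 replicate 2 and 3 without line 2 replicate 1. Fzd5, a WNT receptor, fell from 26.1 and 31.1 CPM to 11.8 and 12.7 CPM (log2 difference -1.22 ± 0.15 SE, adjusted p = 0.00103). Of 28 tested genes of sterol and fatty acid synthesis 6 fell and none rose, 3 without line 1 replicate 2. Hmgcs1, an early enzyme of the sterol pathway, measured 217 and 271 CPM in line 1 and 132 and 108 CPM in line 2 (log2 difference -1.02 ± 0.14 SE, adjusted p = 0.00163), and 186 and 85.5 CPM in culture. All 28 were lower in line 2 in culture. The WNT and receptor tyrosine kinase lists did not move as a whole there. Among WNT genes with cultured counts 11 were higher and 8 lower in line 2 (median 0.13 on the log2 scale). Among receptor tyrosine kinases and ligands 17 were higher and 16 lower. Among complement genes 3 were higher and 7 lower, with a cultured median of -0.39 beside -0.44 in purified cells.

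Several genes of the p53 and stress responses were higher in line 2 in purified cells. The tumor suppressor p53 turns on genes that halt the cell cycle after DNA damage. Of 21 tested p53 targets 8 rose and 2 fell, where 5.08% of all tested genes rose, and 3 rose and 2 fell without line 1 replicate 2. Cdkn1a, the cell cycle inhibitor p21, measured 128 and 130 CPM in line 1 and 253 and 272 CPM in line 2 (log2 difference 1.03 ± 0.11 SE, adjusted p = 0.000326). In culture it was at 182 and 328 CPM. Mdm2, which marks p53 for degradation, rose from 84.9 and 82.0 CPM to 121 and 143 CPM (adjusted p = 0.00615), and was at 147 and 316 CPM in culture. Sesn1 and Trp53inp1 were the targets that fell, Sesn1 from 17.0 and 19.5 CPM to 9.11 and 10.2 CPM. Trp53 itself did not pass the test, at 172 and 155 CPM in line 1 and 188 and 192 CPM in line 2 (adjusted p = 0.192). Of 25 tested amino acid stress genes under Atf4 7 rose and none fell, 4 rose and 1 fell without line 1 replicate 2 or without line 2 replicate 1. Ddit3, the stress factor CHOP, rose from 52.7 and 37.1 CPM to 87.1 and 96.5 CPM (log2 difference 1.04 ± 0.16 SE, adjusted p = 0.00350). The lists parted in culture. Of the 21 p53 targets 17 were higher and 4 lower in line 2 there (median 0.52 on the log2 scale). Of the 25 Atf4 genes 9 were higher and 16 lower (median -0.06).

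Transcripts of the mitochondrial genome were higher in line 2. Counts in this paragraph stand beside the 5.08% of all tested genes that rose. Of 13 genes that encode subunits of the respiratory chain 10 rose, with a median of 0.58 on the log2 scale, and 4 rose without line 1 replicate 1. ND2 measured 559 and 645 CPM in line 1 and 1129.5 and 957 CPM in line 2 (log2 difference 0.80 ± 0.13 SE, adjusted p = 0.00396). The replicates of line 2 stood apart by a median of 0.23 over these genes. All 13 were also higher in line 2 in culture, with a median of 0.27. Of 28 tested respiratory chain genes of the nucleus 2 rose, with a median of 0.09, and between 0 and 5 rose with 1 library left out. Of 28 tested glycolysis and hypoxia genes 3 rose, but 18 rose and 1 fell without line 1 replicate 2, and none rose or fell without line 2 replicate 2. Tpi1, a glycolytic enzyme, was at 853 and 1191 CPM in line 1 and 1677 and 1682 CPM in line 2 (log2 difference 0.72 ± 0.15 SE, adjusted p = 0.0132), a call that held only in the fit without line 1 replicate 2 when libraries were left out in turn.

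Of 12135 tested genes, 11791 had at least 10 counts in the 2 cultured libraries together, which show each line in the absence of a host. Among the called genes, 1228 of 1445 had the same direction in culture (85.0%, exact binomial interval 83.0 to 86.8), against 7655 of all 11791 (64.9%). The share was 88.9% of the 324 genes that differed by at least 2-fold and 92.1% of the 114 that differed by at least 4-fold. The genes are not independent and the intervals cover counting error only. A cultured ratio of at least 2-fold in either direction was seen for 6.47% of the tested genes, and for 157 of the 324 genes in the direction of the purified cells and 7 in the opposite one. The median size was 0.33 on the log2 scale in culture, in the direction of the purified cells, against 0.64 in purified cells. These sizes are not like for like. The genes were chosen by their difference in purified cells, which favours large values there, and the prior count of 2 shrinks the cultured ratios.

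**Figure D2:**
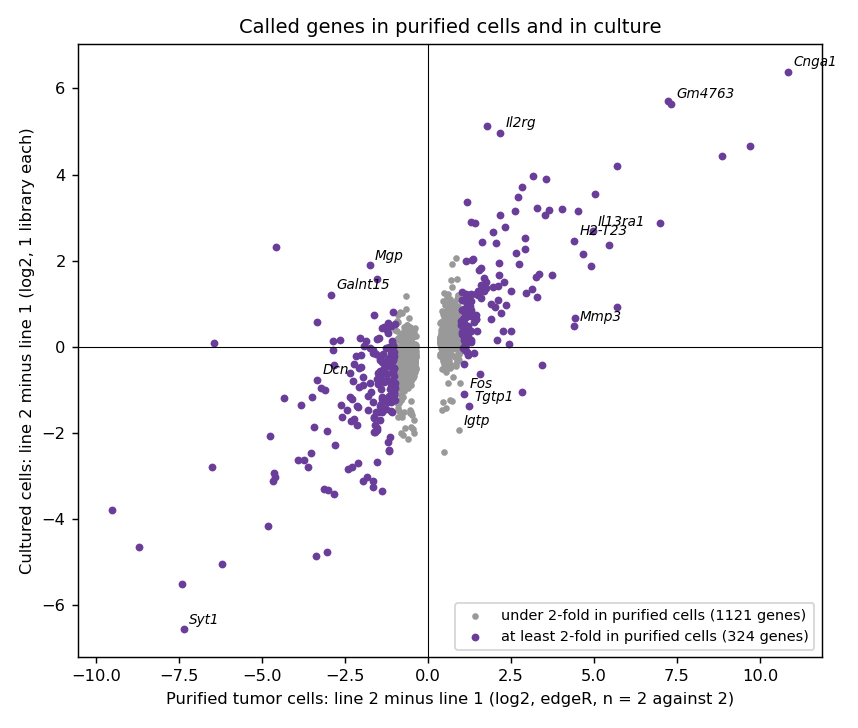
Difference between the control lines (line 2 minus line 1, log2) of each called gene with at least 10 cultured counts, in purified tumor cells (x axis, edgeR) and in culture (y axis, ratio of 1 library each). Purple points differ by at least 2-fold in purified cells (324 genes), and genes with no counts in a line, such as Cnga1, are placed by a fitted value that is no measured fold. Most points lie in the lower left and upper right quadrants, with Cnga1 and Syt1 far along the diagonal and Mgp, Galnt15, Fos and Tgtp1 in the opposite ones.

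The genes that turned round most were named by the size of the cultured ratio. Mgp, matrix Gla protein, an inhibitor of calcification, measured 31.6 and 34.2 CPM in line 1 and 11.1 and 8.27 CPM in line 2 in purified cells, and 0.55 and 2.32 CPM in culture. Its difference between settings was -3.84 ± 0.50 SE on the log2 scale (edgeR adjusted p = 0.00494). Fos, an immediate early transcription factor, rose from 5.88 and 9.16 CPM to 14.0 and 17.7 CPM in purified cells, and was at 168 and 78.5 CPM in culture (difference between settings 2.16 ± 0.31 SE, adjusted p = 0.00724). Galnt15 and Epsti1, lower in line 2 in purified cells, and Tgtp1, higher there, also turned round in culture, but their differences between settings did not pass the test (adjusted p = 0.0626, 0.196 and 0.224).

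Over all genes, the difference between the lines itself differed between purified and cultured cells for 99 of 12877 tested genes (0.769%, edgeR, 4 purified and 2 cultured libraries, the single cultured libraries being taken to vary like the purified ones). For 67 of the 99 the line 2 level relative to line 1 was higher in purified cells than in culture. Among those with the smallest p were Zbp1, a sensor of Z-form nucleic acid, Apol9b, Gbp3, an interferon-induced GTPase, and Parp14, which are known to be induced by interferons. Interferons are cytokines that raise a large set of antiviral genes.

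Of 32 type I interferon-stimulated genes, 29 were at least 2-fold lower in line 2 in culture. Over all tested genes 6.47% had a cultured ratio of at least 2-fold in either direction. Of the 32, 25 were among the genes that differed between settings, which were 0.769% of all tested genes. All 25 had the higher relative level of line 2 in purified cells. The list summed to 3202 CPM in cultured line 1 and to 1008 CPM in cultured line 2. In purified cells it summed to 3108 and 3372 CPM in line 1 and to 2962 and 3272 CPM in line 2, so that the libraries of the lines overlapped, and 2 of the 32 rose and 3 fell, with 9 falling without line 1 replicate 2. Over all tested genes 5.08% rose and 7.35% fell in purified cells. Isg15, a ubiquitin-like protein, measured 145 and 26.1 CPM in cultured lines 1 and 2, and 85.7 and 62.9 against 63.2 and 64.4 CPM in purified cells (difference between settings 2.25 ± 0.26 SE, adjusted p = 0.00308). Ifit1, which binds viral RNA, measured 63.5 and 21.4 CPM in culture, and 37.0 and 35.1 against 40.1 and 28.1 CPM in purified cells (difference between settings 1.48 ± 0.29 SE, adjusted p = 0.0390). The cultured knockout library had 134 CPM of Isg15 and 51.5 CPM of Ifit1, near line 1 rather than line 2. With 1 cultured library a line, the line and that library cannot be told apart.

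**Figure D3:**
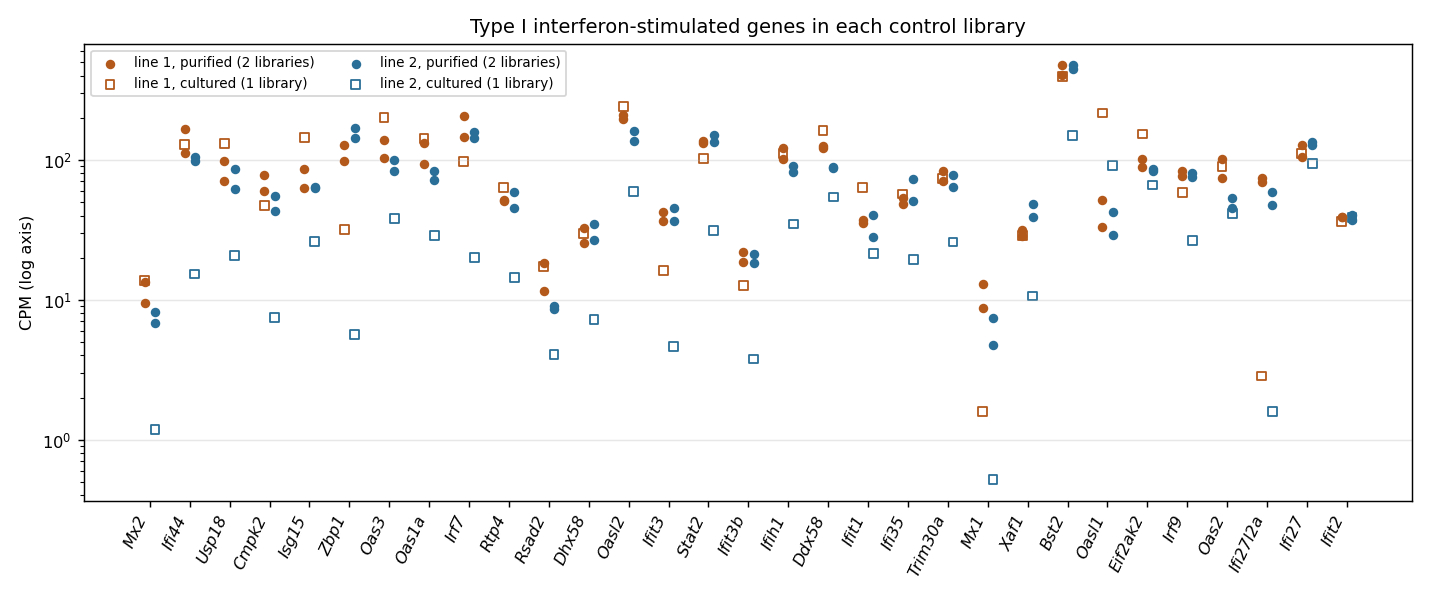
CPM on a log axis of 31 type I interferon-stimulated genes, ordered by their cultured ratio. Filled points are purified libraries (2 per line) and open squares cultured libraries (1 per line). The open square of line 2 is the lowest point for most genes, while the filled points of the lines lie closer together.

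The upstream sequence is shown for 3 genes whose line difference differed between settings because the letters known to bind interferon-activated factors recur in them. The runs are the 250 bases before the RefSeq start (GRCm38.p6), 5′ to 3′ on the strand of the gene, with each match to GAAANNGAAA, or its reverse complement TTTCNNTTTC, in capitals; matches that overlap are merged. Isg15 lies on the minus strand (chr4:156200819-156201068), Ifit1 on the plus strand (chr19:34640639-34640888) and Gbp3 on the plus strand (chr3:142559794-142560043, the first of its 2 entries).
Isg15: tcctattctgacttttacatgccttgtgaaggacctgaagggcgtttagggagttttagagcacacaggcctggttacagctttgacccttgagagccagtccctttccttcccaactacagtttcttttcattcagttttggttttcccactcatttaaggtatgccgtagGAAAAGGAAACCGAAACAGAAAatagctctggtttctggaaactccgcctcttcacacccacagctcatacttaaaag
Ifit1: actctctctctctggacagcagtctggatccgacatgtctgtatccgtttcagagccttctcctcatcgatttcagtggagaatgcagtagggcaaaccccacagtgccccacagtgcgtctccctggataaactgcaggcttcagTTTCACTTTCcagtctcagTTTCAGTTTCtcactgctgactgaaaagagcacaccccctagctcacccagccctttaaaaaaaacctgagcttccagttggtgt
Gbp3: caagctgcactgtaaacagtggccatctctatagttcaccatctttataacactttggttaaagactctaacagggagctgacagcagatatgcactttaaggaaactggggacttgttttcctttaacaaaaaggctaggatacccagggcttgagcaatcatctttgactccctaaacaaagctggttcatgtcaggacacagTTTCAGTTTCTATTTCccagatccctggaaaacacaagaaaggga
Over windows of 300 bases the letters occurred in 13 of 22 type I interferon genes with an entry (59.1%) and in 23 of 50 genes that differed between settings with the higher relative level of line 2 in purified cells (46.0%). They occurred in 3.96% of all tested genes with an entry and in 3.44% of all windows in the table. The interferon list and the genes that differed between settings overlap, so these shares are not separate. Of the 67 genes with the higher relative level of line 2 in purified cells, 25 are on the interferon list. The second entry of Gbp3 holds no match in its 250 bases. A match is a description of the sequence only.

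Among genes induced by interferon gamma the counts in purified cells rested on single libraries. Of 23 tested GTPases and chemokines 6 rose and 1 fell in line 2, where 5.08% of all tested genes rose, but none rose without line 2 replicate 1, 3 rose without line 2 replicate 2 and 13 rose without line 1 replicate 2. Igtp, a GTPase of cell-autonomous defence, measured 78.7 and 122 CPM in line 1 and 199 and 181 CPM in line 2 (log2 difference 0.92 ± 0.18 SE, adjusted p = 0.0112), against 28.7 and 7.43 CPM in culture. Its call in purified cells was lost when either library of line 2 was left out. Cxcl10, a chemokine for T cells, was the gene that fell, from 23.8 and 21.7 CPM to 14.0 and 12.8 CPM. Of 22 tested class I and peptide loading genes 6 rose and none fell, 2 rose and 1 fell without line 2 replicate 1 and 10 rose without line 2 replicate 2. Besides H2-T23 these were Psmb8, Psmb9, Psme1, Psme2 and Tap2, of the proteasome and the peptide transporter. Psmb9 measured 50.5 and 72.1 CPM in line 1 and 150 and 108 CPM in line 2 (log2 difference 1.08 ± 0.19 SE, adjusted p = 0.00926), and 3.51 and 2.63 CPM in culture. Without line 2 replicate 1 the calls of Psmb8, Psmb9, Psme1 and Tap2 were lost. The classical genes H2-K1 and H2-D1 did not pass the test (adjusted p = 0.341 and 0.489). In culture, with 1 library a line, both lists went mostly the other way. Of the 22 class I and peptide loading genes 19 were higher in line 2 in purified cells and 18 were lower in culture (median -0.45 on the log2 scale). Of the 23 GTPases and chemokines 19 were higher in purified cells. In culture 18 of 19 with enough counts were lower (median -1.31).

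Differences between the lines were also unevenly spread over the chromosomes. The median difference over tested genes was -0.29 on chromosome 4 (726 genes), -0.29 on chromosome 8 (641 genes), -0.18 on chromosome 1 (729 genes) and -0.17 on chromosome 13 (445 genes). In culture the medians of these chromosomes were -0.28, -0.28, -0.28 and -0.12. On the X chromosome and the other autosomes except chromosome 5 the median was between 0.01 and 0.12 in purified cells. Chromosome 5 was at -0.11 in purified cells and 0.05 in culture, and chromosome 2 at 0.03 and -0.13, so they changed sign between settings. Replicates lay close together: relative to the mean of the 4 libraries, the genes of chromosome 4 had medians of 0.16 and 0.15 in line 1 and -0.14 and -0.13 in line 2, and those of chromosome 8 had 0.14 and 0.15 in line 1 and -0.13 and -0.14 in line 2. On chromosome 4, 154 genes fell and 11 rose, and on chromosome 8, 141 fell and 7 rose. Chromosomes 1, 4, 8 and 13, grouped after their medians were seen, held 2541 of the tested genes and 475 of the 892 that fell, of which 91 reached 2-fold. On the other chromosomes 564 genes rose and 413 fell.

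**Figure D4:**
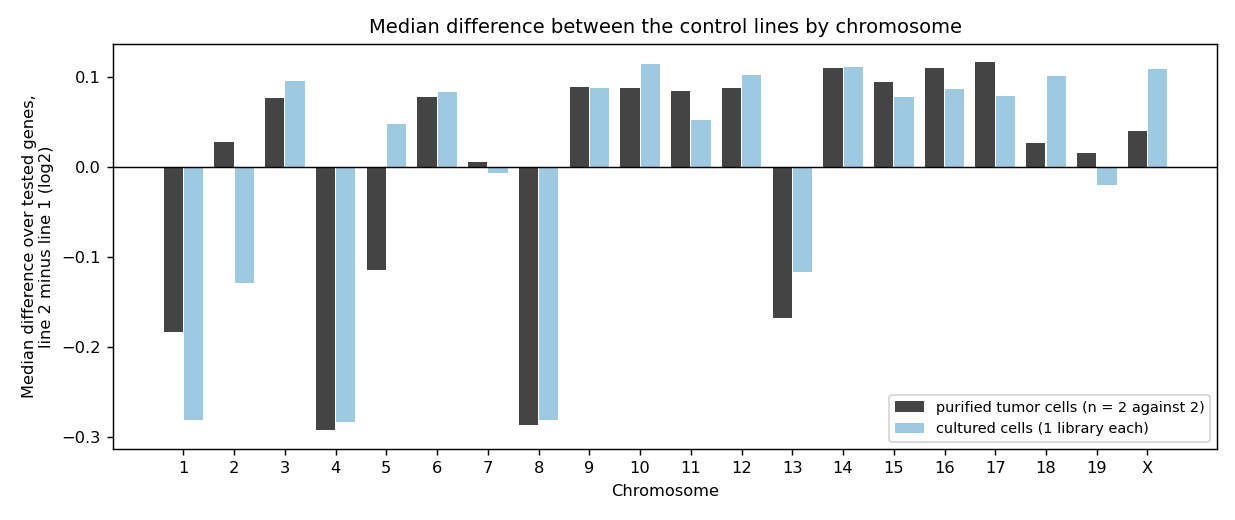
Median difference between the control lines (line 2 minus line 1, log2) over the tested genes of each chromosome, in purified cells (dark bars) and in culture (light bars). Bars of chromosomes 1, 4, 8 and 13 lie below 0 in both, and chromosomes 2 and 5 differ between the settings.

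Runs of 50 consecutive tested genes, the last of a chromosome holding the remainder, placed the shifts within the chromosomes. Of 229 runs, 40 had a median of -0.20 or lower in both purified cells and culture, and 1 had a median of 0.20 or higher in both. A stretch was counted where at least 2 neighbouring runs were at -0.15 or lower in both, a level set after the medians were seen. There were 7 such stretches, with 2273 genes, of which 470 fell and 32 rose, beside 7.35% lower over all tested genes; since low medians chose the stretches, these counts only describe them. They covered all 12 runs of chromosome 8 and the first 12 of 14 on chromosome 4 (chr4:14351-143212769). On chromosome 1 they covered runs 5 to 12 of 14 (chr1:65186640-171262267). Chromosome 13 had a shift in its middle, chr13:38036989-77135513, with a median of -0.34 in purified cells and -0.34 in culture over 200 genes, of which 46 fell and 1 rose. Chromosome 7, whose median was 0.01, held a pair of such stretches, chr7:3154658-24573438 at -0.29 and chr7:35586226-70411146 at -0.26. Chromosome 19 held one at its end, chr19:40596446-61140844, at -0.34.

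The knockout line helps to place these stretches. Relative to the mean of the 3 lines, the genes of the chromosome 4 stretch were at 0.22 in line 1, -0.08 in line 2 and -0.13 in the knockout line, so line 1 was the highest. Those of chromosome 8 were at 0.08 in line 1, -0.20 in line 2 and 0.12 in the knockout line, so line 2 was the lowest. Cultured cells gave the same order, with 0.20, -0.08 and -0.11 on chromosome 4 and 0.07, -0.20 and 0.13 on chromosome 8. The stretch of chromosome 1 was like that of chromosome 4, at 0.14, -0.04 and -0.11, and those of chromosomes 7 and 19 were like chromosome 8, with line 2 between -0.25 and -0.19. In the stretch of chromosome 13 the knockout line lay between the control lines, at 0.06 against 0.17 in line 1 and -0.21 in line 2. DNA was not measured in these libraries.

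**Figure D5:**
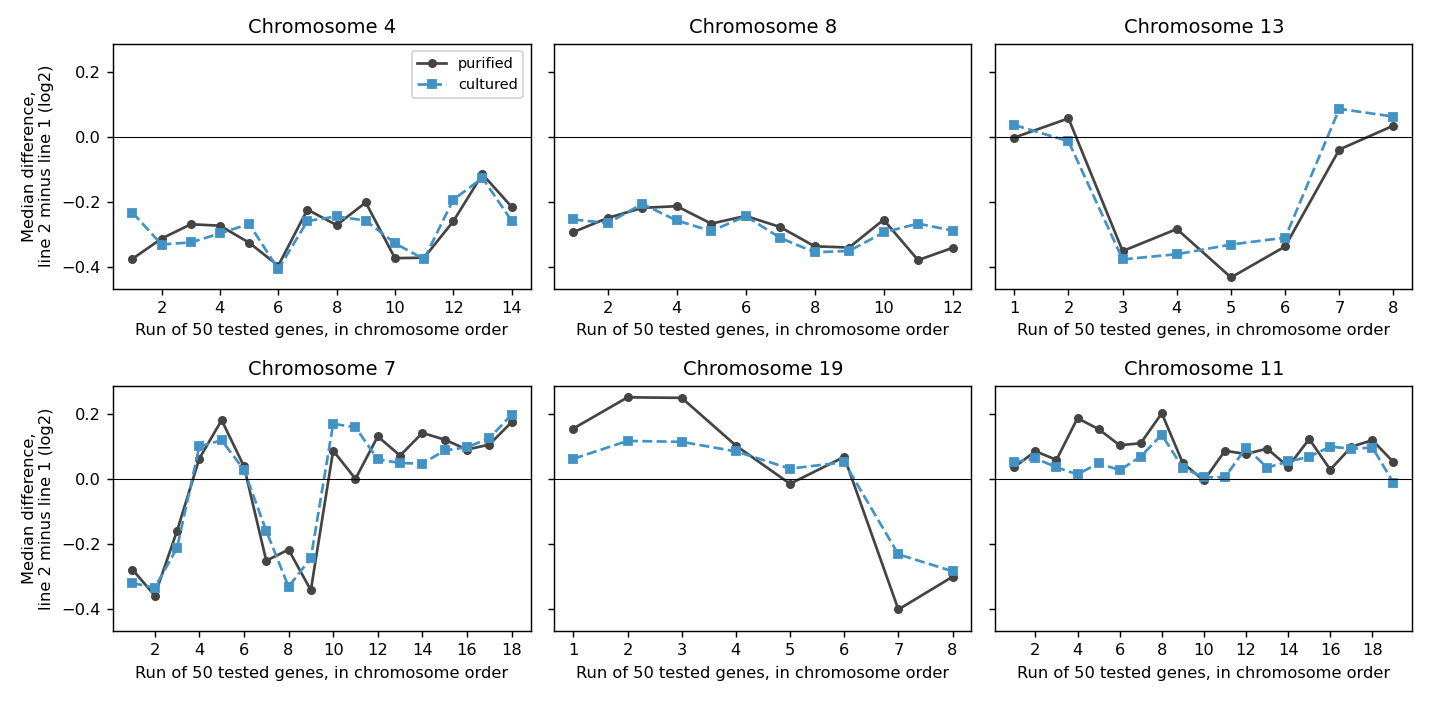
Median difference between the control lines (log2) in runs of 50 tested genes along chromosomes 4, 8, 13, 7, 19 and 11, in purified cells (circles) and in culture (squares). Chromosomes 4 and 8 are low throughout, chromosomes 13, 7 and 19 have low stretches beside runs near or above 0, and chromosome 11, shown for contrast, has none.

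Over the 1508 called genes, the mean of the purified knockout libraries lay nearer to line 1 for 796 and nearer to line 2 for 712. It lay between the control lines for 950, above both for 278 and below both for 280. Of the 386 genes that differed by at least 2-fold, 198 were nearer to line 1 and 188 to line 2. Krt18, an epithelial keratin, shows a gene where the knockout stood apart from both lines: it rose from 34.7 and 27.8 CPM in line 1 to 53.8 and 56.0 CPM in line 2 (log2 difference 0.82 ± 0.14 SE, adjusted p = 0.00545) and was at 0.55 and 0.34 CPM in the knockout. Of 19 tested genes of the LINC complex and nuclear lamina 2 fell and none rose, a share near that of all tested genes (12.4% called, 7.35% lower), and 6 fell and 1 rose without line 2 replicate 2. Tor1aip1, the lamina protein LAP1, fell from 168 and 170 CPM to 123 and 115 CPM (log2 difference -0.50 ± 0.10 SE, adjusted p = 0.0128), and Lbr, the lamin B receptor, from 223 and 211 CPM to 151 and 165 CPM (adjusted p = 0.0221). Both lie on chromosome 1. Sun2, the partner of Sun1, was at 161 and 171 CPM in line 1 and 178 and 176 CPM in line 2 (adjusted p = 0.575).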

How the data were processed

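RNA-seq was made from purified tumor cells, cultured cells and whole tumors. The authors deposited, for each library, RSEM expected counts and TPM values per gene; STAR, RSEM, FastQC, DESeq2 and the mm10 build are named per the submitters' processing notes, with no versions or settings given in the sources used here. TPM values as deposited by the authors were used only where levels are given per length, and their tables of control against knockout were not used. Expected counts were rounded and fitted with edgeR 4.0.16 in R 4.3.3 (filterByExpr with a count minimum of 10 and a total of 15, TMM scaling, robust quasi-likelihood test) on the 4 purified control libraries, which leaves 2 residual degrees of freedom before information is shared over genes. SE is the size of the log2 difference divided by the square root of F, and p-values were adjusted by Benjamini-Hochberg over all tested genes. A gene is called at an adjusted p under 0.05. The fit was tested on simulated data.

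Differences are line 2 minus line 1. Cultured ratios used CPM with a prior count of 2 and at least 10 counts. The difference between settings was fitted on 6 control libraries. A line at 0 was given a floor of 3 counts over its libraries, and intervals are exact at 95% and cover counting error only. Gene positions, promoters and their sequences are from RefSeq (GRCm38.p6), matched for all but 4.01% of 35976 genes. Replicates differed by more than sampling noise, with a chi-square per gene of 13.0 in line 1 and 20.9 in line 2. Same-numbered libraries did not deviate together, as the correlation was -0.093 over 12135 genes.

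Comparison, gene lists and rules were chosen with earlier results of these data known. Named genes were the 12 largest differences each way among called genes of at least 5 CPM in either line, genes under 0.5 CPM in 1 line and at least 5 CPM in the other, called genes of highest level with at least 1.5-fold difference, up to 4 called members of a list by p, the 5 that turned round most in culture and the 5 smallest p of the difference between settings. C1qa, Col1a2, H2-D1, H2-K1, Ifit1, Il2rg, Isg15, Lox, Map4k1, Postn, Prelp, Psmb8, Psme1, Ptpn6, Ptprc, Trp53 and Trp53inp1 were added after their values were seen. Alternatives covered scaling, filters, DESeq2 1.42.0, other libraries in the fit, a replicate block and each library left out. List counts with 1 library left out were added after seeing the data. Results of some genes are not reported here.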

Additional observations from a re-analysis of the deposited data

Results flagged for a closer look

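For 12 of the named genes the difference between the control lines in purified cells differed from that in culture by the edgeR test of that difference. Values are the purified minus the cultured line difference on the log2 scale, and each cultured line is 1 library. Among genes induced by interferons it was 2.94 for Zbp1, 2.86 for Igtp, 2.68 for Gbp3, 2.25 for Isg15, 2.005 for Parp14, 1.88 for Apol9b and 1.48 for Ifit1. The protease gene Mmp3 was at 3.86 and the immediate early gene Fos at 2.16. The protease gene Adamts1 was at -1.83. Mgp was at -3.84, lower in line 2 in purified cells and higher in culture. The receptor gene Il2rg was at -2.97, higher in line 2 in both settings with the larger gap in culture.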

How the results depend on the processing

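The 1508 calls became 2267 without a filter on low counts, with 978 higher in line 2. They became 1285 with the replicate number as a block, although no label says whether equal numbers pair the libraries. With a filter of 5 CPM the genes of at least 2-fold difference fell from 386 to 249, as fewer genes were tested. With 1 library left out the calls ranged from 999 to 2319, those higher in line 2 from 396 to 1048 and those lower from 592 to 1271. The lowest count came without line 1 replicate 1 and the highest without line 2 replicate 2. No gene called in both fits changed direction under any of the 12 alternatives, which shared 55.3% to 99.9% of the 1508 calls. That check leaves out genes whose call was lost. Of the 60 named and called genes, 58 kept direction under each alternative, and fewer kept both direction and call. In the fit with the cultured control libraries 2 of the 60 reversed. The same direction in culture held for 85.0% of called genes and for 88.9% of those with at least 2-fold. Of 99 genes that differed between settings in the control fit, the number was 122 with 9 libraries.

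Fitted on purified and cultured control libraries together, the line difference was -0.19 for Apol9b, -0.33 for Gbp3, -0.45 for Parp14, -0.29 for Zbp1, -0.039 for H2-D1 and -0.097 for H2-K1, each positive in purified cells alone; the cultured libraries carry the opposite sign. With 1 library left out, Isg15 ranged from -0.43 to 0.034, Ifit1 from -0.35 to 0.17, C1qa from -1.765 to 0.51 and Ptprc from -1.68 to 0.35. Under the block the calls of Apol9b, Epsti1 and Zbp1 were lost. No chromosome median moved beyond the replicate spread of 0.032 when only genes of at least 5 CPM were used. Genes with few counts in the single cultured libraries limit the check of direction.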

Other observations

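Counts for further gene lists are given beside the 5.08% of all tested genes that rose and the 7.35% that fell. Of 28 tested immediate early and heat shock genes 8 rose in line 2 and 2 fell. Cyr61, a matricellular protein under YAP, rose from 37.1 and 31.7 CPM to 70.7 and 84.0 CPM (log2 difference 1.18 ± 0.14 SE, adjusted p = 0.000725), and cultured cells held 365 and 419 CPM. Dusp1, a phosphatase that switches off MAP kinases, rose from 20.8 and 24.5 CPM to 38.8 and 44.8 CPM (adjusted p = 0.00394), with 105 and 89.6 CPM in culture. Of 17 tested genes of ERK feedback 5 rose and 1 fell, and 8 rose without line 2 replicate 1. Il1rl1, the receptor for interleukin 33, rose from 237 and 250.1 CPM to 488 and 488 CPM (log2 difference 1.01 ± 0.11 SE, adjusted p = 0.000370), and was at 267 and 338 CPM in culture.

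Of 20 tested matrix proteases and their inhibitors 5 rose and 5 fell. Adamts1, which cleaves proteoglycans, fell from 97.4 and 107 CPM to 21.6 and 28.8 CPM (log2 difference -2.01 ± 0.15 SE, adjusted p = 5.53e-05). Its cultured values were 59.9 and 52.4 CPM, and the purified difference was lower than the cultured one by 1.83 on the log2 scale (-1.83, adjusted p = 0.00589). Adam8, a membrane protease, rose from 6.79 and 6.67 CPM to 16.4 and 21.8 CPM (adjusted p = 0.00126). Of 29 tested axon guidance and adhesion genes 6 fell and 2 rose, and 6 rose without line 2 replicate 1. Slit3, a secreted guidance ligand, fell from 389 and 346 CPM to 191 and 223 CPM (adjusted p = 0.00248) and was at 207 and 88.4 CPM in culture. Of 27 tested Hox and patterning factors 6 fell and none rose, and 2 fell without line 1 replicate 1.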
